A study of Mus musculus with 2 samples.

Results

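Ctgf, Cyr61, Thbs1, Postn, Fn1, Tgfb1, Tgfb2, Tgfb3 and Timp3 encode secreted regulators of the cardiac matrix: matricellular proteins, fibronectin, the 3 TGF-beta ligands and a protease inhibitor. They were chosen by name, as the probes whose platform gene symbol is one of these 9, out of 16390 genes on the array. Ctgf and Cyr61 are older symbols, and the current ones are Ccn2 and Ccn1. Each of the 9 genes had 1 probe. RNA came from 4 hearts of male mice on the C57BL/6J background at 6 months of age: a cardiomyocyte-specific Sirt1 knockout heart under caloric restriction (CR), a knockout heart of a mouse fed ad libitum (AL), a control heart under CR and a control heart under AL. Restriction by 40% or free feeding had lasted 3 months. Each of 2 two-colour arrays paired the CR heart (Cy3) with the AL heart (Cy5) of 1 genotype. The design sets the cardiac effect of restriction with and without Sirt1, an NAD-dependent deacetylase, in cardiomyocytes side by side. The promoter that drove the deletion is not given in the sources used here, and the control mice are labelled control or WT with no allele. The other cells of the heart kept their own Sirt1 by the label. Because every condition was measured in 1 heart, and the dyes were not swapped, no test, p-value or replicate SD can be given, and diet cannot be told apart from dye within an array, nor genotype from array.

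TGF-beta ligands are secreted in a latent complex that is held in the matrix. Once released, they bind type II and type I receptor kinases, which activate SMAD transcription factors, and in the heart they are best known for driving fibroblasts to make matrix. Matricellular proteins such as CTGF, CYR61, thrombospondin-1 and periostin sit in the matrix without being structural fibres and modify how cells adhere and respond to growth factors. TIMPs block the metalloproteinases that cut that matrix, and TIMP3 is the one that binds to the matrix itself.

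The promoters of Timp3 and Cyr61 are shown because the pair stands for the contrast found below: Timp3 was higher with restriction in both genotypes, whereas Cyr61, which like Ctgf is known as a target of the YAP and TEAD transcription factors, was not. The RefSeq promoter table (GRCm38.p6) held entries for 5 of the 9 genes. The sequences run 5′ to 3′ for the 250 bases before the transcription start, and capitals mark the motifs searched. Timp3 lies on the plus strand at chr10:86300162-86300411 and Cyr61 on the minus strand at chr3:145649986-145650235.
Timp3: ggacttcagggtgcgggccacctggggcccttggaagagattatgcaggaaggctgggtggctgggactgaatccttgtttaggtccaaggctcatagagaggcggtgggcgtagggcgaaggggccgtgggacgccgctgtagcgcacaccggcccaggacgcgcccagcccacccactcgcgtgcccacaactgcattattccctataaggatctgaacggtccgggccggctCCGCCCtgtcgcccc
Cyr61: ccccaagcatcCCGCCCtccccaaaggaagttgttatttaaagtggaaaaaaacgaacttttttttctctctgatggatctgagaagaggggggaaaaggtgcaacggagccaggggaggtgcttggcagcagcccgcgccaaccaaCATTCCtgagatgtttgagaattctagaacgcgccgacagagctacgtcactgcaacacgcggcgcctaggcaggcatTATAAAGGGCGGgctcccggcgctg

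The motifs were the TEAD motif GGAATG, the SMAD motifs CAGAC and GTCTAGAC, the AP-1 motif TGANTCA, the GC box GGGCGG, the glucocorticoid receptor motif AGAACA and the TATA box TATAAA, each on both strands of the 300 bases from 250 before to 50 after the start. In the Cyr61 window a TEAD motif on the reverse strand began 103 bases before the start, a TATA box 25 bases before it, and GC boxes 239 bases before it on the reverse strand and 19 bases before it, where the GC box adjoins the TATA box. The Cyr61 window also held CAGAC at base 4 after the start. The Timp3 window held only GC boxes, of which one began 15 bases before the start and one at base 14 after it, both on the reverse strand. Of all 32851 promoters in the table, 14.7% held the TEAD motif, 49.6% CAGAC, 0.213% GTCTAGAC, 7.81% the AP-1 motif, 35.7% the GC box, 19% the glucocorticoid receptor motif and 13.6% the TATA box. These matches describe letters and not binding.

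Of all probes, 74.0% (CR) and 77.6% (AL) were detected in the knockout hearts, against 77.8% (CR) and 80.7% (AL) in the control hearts, where detected means above the blank spots by 2 SD. All 11 cardiomyocyte markers on the array were detected in every heart. Sirt1 itself had a log2 signal of 7.51 (CR) and 7.07 (AL) in the knockout hearts, against 7.53 and 7.11 in the control hearts. Its probe's place relative to the deleted part is not known here, and other cells of the heart keep the gene, so these values do not check the genotype. Among atrial muscle markers, knockout over control passed 1.5-fold upward in 1 of 7 and downward in 2 under CR (median -0.24), and upward in 1 of 8 and downward in 2 under AL (median -0.099). They ran from the myosin light chain Myl7, chosen after its values were seen, at -4.06 under CR and -3.95 under AL, to the natriuretic peptide gene Nppa, at 1.95 and 0.99. With the local background subtracted 0 of these markers passed upward under CR, so Nppa no longer did, and 3 passed downward. Under AL 1 of these markers then passed upward and 3 downward. Their part in the differences between genotypes given further on was not tested.

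Restriction went with higher Ctgf and Timp3 and with lower Fn1 on both arrays. The 3 TGF-beta genes, which were dimmer, barely differed in the main setting. Ctgf was 2.67-fold and Timp3 2.17-fold higher with CR in the knockout hearts. Both values exceeded those of the control hearts, but for Ctgf this order turned when the brightness around each spot, the local background, was subtracted (log2 0.57 knockout, 0.78 control). Among the 8 genes detected in all hearts, 2 were at least 1.5-fold higher with CR on the knockout array and 0 were that much lower. Of the 12144 genes compared there, 0.774% were that much higher, 0.758% that much lower and 1.53% either. On the control array 0 of the 8 passed the same fold, against 0.822% higher, 0.34% lower and 1.16% either among 12659 genes. Values above 0 were found for 2 of the 8 on the knockout array, where 50.1% of genes were above 0, and for 5 of the 8 on the control array, where 51.4% were. These counts became 6 and 3 of 8 with the local background subtracted. The median log2 CR over AL value of the 8 genes was -0.05 on the knockout array and 0.04 on the control array, beside 0.00031 and 0.0042 over all genes compared. The medians of the 8 turned to 0.039 and -0.022 with that subtraction.

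**Figure D1:**
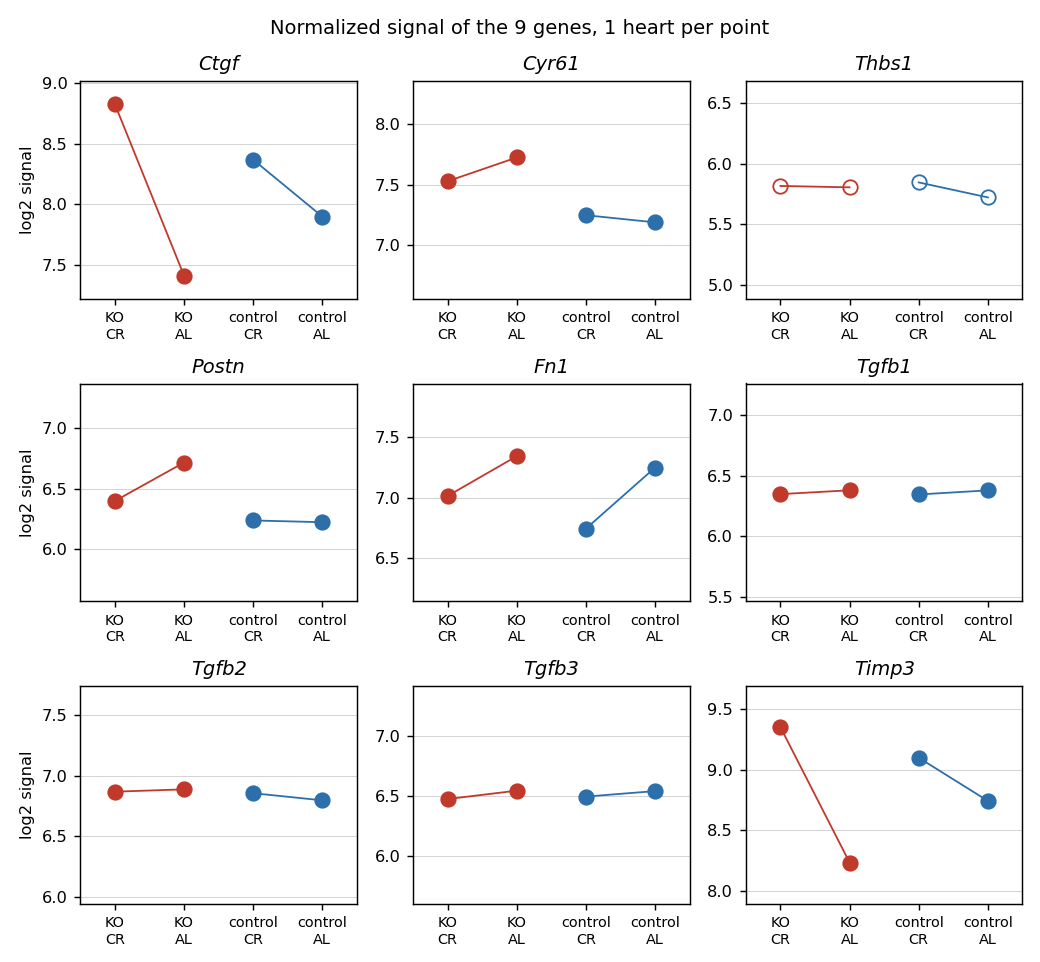
Normalized log2 signal (vertical axis, each panel spanning 1.8 log2 units around the gene's own range) of the 9 genes in the knockout CR, knockout AL, control CR and control AL heart, with 1 point per heart, lines joining the hearts of 1 array and open points for signals not above the blank spots. Ctgf and Timp3 are highest in the knockout CR heart and lowest in the knockout AL heart, and the 3 Tgfb genes are nearly level.

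The 3 ligand genes stand at the head of the pathway, and among the 8 detected genes they had the smallest spans of log2 signal over the hearts. Tgfb1, the ligand made by many cell types after injury, had log2 signals of 6.35 (CR) and 6.38 (AL) in the knockout hearts, against 6.34 and 6.38 in the control hearts. Tgfb2, the ligand known for its role in the developing heart and its valves, had 6.87 and 6.89 in the knockout hearts, against 6.86 and 6.80 in the control hearts. Tgfb3, the third ligand, stood at 6.47 and 6.54 in the knockout hearts, against 6.50 and 6.54 in the control hearts. The whole span over the 4 hearts was 0.035 for Tgfb1, 0.091 for Tgfb2 and 0.069 for Tgfb3. By mean signal Tgfb1 stood at percentile 32.4, Tgfb2 at 52.3 and Tgfb3 at 39.6 among genes detected in all hearts. Folds of dim genes are understated, so a response of these ligands could have been missed.

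The ligands' log2 ratios of CR over AL were within 0.1 of 0 on both arrays in the main setting. On the knockout array they were -0.032 for Tgfb1, -0.019 for Tgfb2 and -0.069 for Tgfb3, and on the control array -0.034, 0.059 and -0.045. With the local background subtracted the knockout values of Tgfb1 and Tgfb2 turned to 0.021 and 0.071, and Tgfb3 was at -0.23 on the knockout array and -0.14 on the control array. Repeated positive control spots gave log2 ratios with SDs of 0.073 and 0.088 on the knockout array and 0.045 and 0.058 on the control array, which describe spot noise and not the spread between mice. These spots did not centre on 0. Their mean log2 ratios were -0.78 and -0.26 on the knockout array and -0.094 and -0.44 on the control array, and the cause was not tested. The Tgfb1 spot read 101.7 scanner units in the knockout CR heart, where the detection limit was 80.9, and 104.8 in the control CR heart, where it was 79.6. In the authors' deposited table, which subtracts the blank level in full, the ligand values ran from -0.22 (Tgfb3, knockout) to 0.08 (Tgfb2, control).

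Ctgf, a matricellular growth factor of the CCN family that is induced by TGF-beta and by stretch, had log2 signals of 8.83 (CR) and 7.41 (AL) in the knockout hearts, against 8.37 and 7.90 in the control hearts. The knockout CR heart was thus highest and the knockout AL heart lowest, with the control hearts between them. With the local background subtracted the knockout CR heart lay below the control CR heart, at a log2 difference of -1.05. The CR over AL log2 value was 1.42 on the knockout array, which ranked 4 from the top of 12144 genes. On the control array it was 0.47, a 1.39-fold difference, which ranked 241 from the top of 12659 genes.

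The knockout response of Ctgf minus its control response was 0.95, and it ranked 9 from the top of 11701 genes detected in all hearts, of which 0.393% were at least 1.5-fold above 0, 0.521% as far below and 0.914% either. Of the 8 genes, 2 (Ctgf and Timp3) passed, both upward, and 4 were above 0, against 49% of all genes. That difference rests on how the brightness around the spot is treated. In the knockout CR heart the spot read 479.7 scanner units and its surroundings 427.9, and in the knockout AL heart 141.3 and 129.0, whereas in the control hearts the spot read 387.5 and its surroundings 177.7 (CR) and 201.5 and 116.2 (AL). Subtracting this local background gave Ctgf 0.57 on the knockout array and 0.78 on the control array, so the difference turned to -0.21. In the other settings it stayed between 0.85 (median centring in place of loess) and 1.25 (the authors' deposited table). The gene was higher with CR on both arrays in every setting.

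Cyr61, the other CCN member measured here, had log2 signals of 7.53 (CR) and 7.72 (AL) in the knockout hearts, against 7.25 and 7.19 in the control hearts. Both knockout hearts lay above both control hearts. CR over AL was -0.20 for Cyr61 on the knockout array and 0.059 on the control array, a difference of -0.26, and with the local background subtracted these were 0.057, -0.032 and 0.089. Ctgf and Cyr61 are known to share a domain plan and the YAP and TEAD input, yet the large CR over AL value of Ctgf had no counterpart in Cyr61 in any setting. The other CCN genes on the array, which were looked up after their values were seen, showed CR over AL values of -0.014 and 0.015 (Ccn3), 0.0060 and 0.062 (Ccn4) and -0.038 and 0.022 (Ccn5) on the knockout and control arrays. Those genes were detected but dim, with log2 signals of 6.08 to 6.17 (Ccn3), 5.89 to 6.02 (Ccn4) and 6.32 to 6.36 (Ccn5). Folds of dim genes are understated, so a response of their own could have been missed.

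Thbs1, which encodes thrombospondin-1, an adhesive glycoprotein that can release TGF-beta from its latent complex, was not above the blank spots in any heart. Its spot read 76.3 (CR) and 35.3 (AL) scanner units in the knockout hearts, where the detection limits were 80.9 and 38.2. In the control hearts it read 76.5 and 30.2, with limits of 79.6 and 34.8. No ratio is given for it. Thbs2, its closest relative and an inhibitor of angiogenesis, was detected and stood at 0.36 on the knockout array and 0.031 on the control array, with 0.21 and 0.045 when the local background was subtracted.

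Postn encodes periostin, a matricellular protein of valves and activated fibroblasts. Its log2 signals were 6.40 (CR) and 6.72 (AL) in the knockout hearts, against 6.24 and 6.22 in the control hearts. The knockout AL heart stood above the other hearts. The CR over AL value was -0.32 on the knockout array, which ranked 513 from the bottom of 12144 genes, and 0.015 on the control array. In the authors' deposited table it was -0.85 on the knockout array and 0.067 on the control array. With the local background subtracted it was 0.0064 and -0.082.

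Fn1 encodes fibronectin, the adhesive glycoprotein on which new matrix is assembled. It had log2 signals of 7.01 (CR) and 7.34 (AL) in the knockout hearts, against 6.74 and 7.25 in the control hearts. Each CR heart was lower than both AL hearts in the main setting. With the local background subtracted the knockout AL heart lay below the control AL heart by a log2 difference of -0.67. The control CR heart was then at -0.44 against the control AL heart, and so above the knockout AL heart. CR over AL was -0.33 on the knockout array and -0.50 on the control array, where it ranked 74 from the bottom of 12659 genes. Across the alternatives it ran from -0.59 to -0.24 on the knockout array and from -0.92 to -0.44 on the control array. Fn1, Ctgf, Timp3 and Tgfb3 were the detected genes whose CR over AL value kept 1 sign on both arrays under all 5 alternatives. The knockout response minus the control response was 0.18 for Fn1.

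Timp3 had log2 signals of 9.35 (CR) and 8.23 (AL) in the knockout hearts, against 9.10 and 8.74 in the control hearts. As with Ctgf, the knockout CR heart was highest and the knockout AL heart lowest. CR over AL was 1.12 on the knockout array, ranking 16 from the top of 12144 genes, and 0.36, or 1.28-fold, on the control array, ranking 503 from the top of 12659. The knockout response exceeded the control response by 0.76, which ranked 18 from the top of 11701 genes. These responses depended little on the setting: the alternatives gave 1.04 to 1.28 on the knockout array, 0.29 to 0.47 on the control array and 0.68 to 0.95 for the difference. The order of the hearts did depend on it. With the local background subtracted the knockout CR heart lay below the control CR heart for Timp3, at a log2 difference of -0.37.

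**Figure D2:**
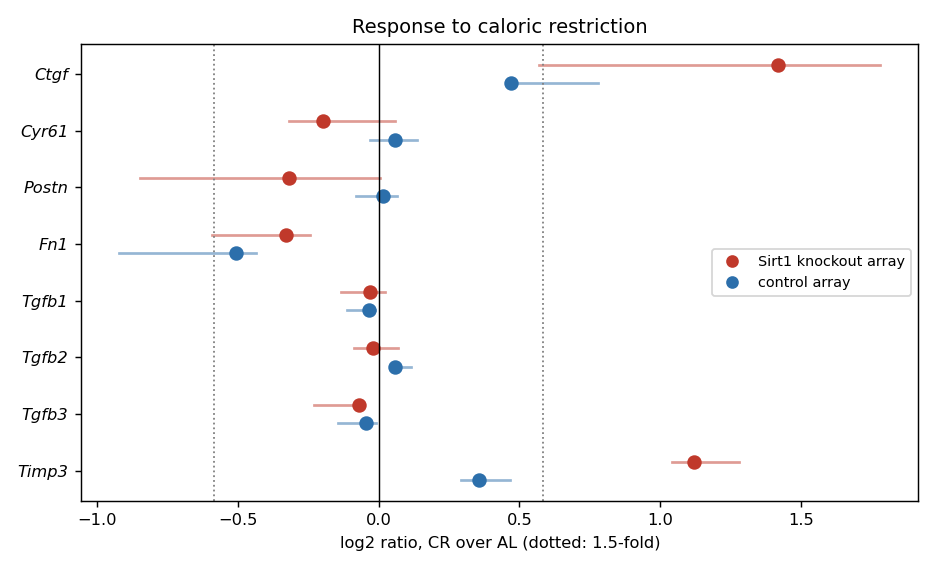
Log2 ratio of the CR over the AL heart (horizontal axis) for the 8 detected genes on the knockout array (upper point of each pair) and the control array (lower point), with lines spanning 5 alternative settings and dotted lines at 1.5-fold. The knockout points of Ctgf and Timp3 lie to the right of the upper dotted line, Fn1 lies left of 0 on both arrays, and the line of Ctgf on the knockout array is long.

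**Figure D3:**
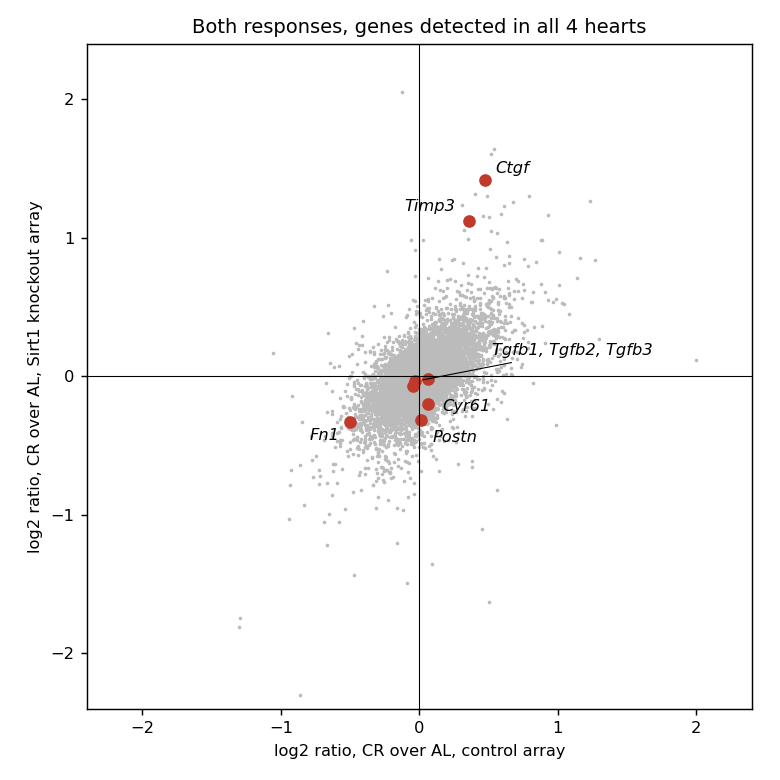
CR over AL log2 ratio on the knockout array (vertical axis) against that on the control array (horizontal axis) for the 11701 genes detected in all 4 hearts (grey), with the 8 detected genes in red. Ctgf and Timp3 lie at the upper edge of the cloud, Fn1 at its lower left edge and the 3 Tgfb genes at its centre.

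Ctgf and Timp3 were the 2 genes whose signal spanned at least 1 log2 unit over the hearts (1.42 and 1.12). Similar patterns were searched, in the main setting only, by Euclidean distance of log2 signals centred per gene over 4 hearts. The search covered 5753 genes detected in all hearts, at or above the median mean signal and without a clone or model name as current symbol. The genes with the most similar pattern to Ctgf were Depp1 at 0.16, Shld1 at 0.19 and Ndrg4 at 0.20. For Timp3 they were Banp, a nuclear DNA-binding protein, at 0.15, Shld1 at 0.17 and Ndrg4 at 0.19. Depp1, which is known as a target of FOXO transcription factors, stood at a CR over AL value of 1.61 on the knockout array and 0.52 on the control array. Shld1, a subunit of the shieldin complex of DNA repair, stood at 1.31 and 0.49. The platform lists Depp1 and Shld1 under clone names, and the current symbols came through the synonyms of the gene table. With 4 hearts on 2 arrays such likeness is a description.

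Timp3 was not the only TIMP that was higher with CR. Timp4, the family member known for its expression in the heart, had log2 signals of 9.31 (CR) and 8.05 (AL) in the knockout hearts, against 8.69 and 8.01 in the control hearts. CR over AL was 1.26 for Timp4 on the knockout array and 0.67 on the control array, and 0.60 and 0.10 with the local background subtracted. Timp1 and Timp2, looked up after their values were seen to complete the family, stood at -0.34 and -0.17 on the knockout array and at -0.18 and 0.03 on the control array. Among the 13 other protease inhibitors compared on the knockout array, Timp4 alone passed 1.5-fold upward, 0 passed downward and 9 had values below 0 (median -0.11). On the control array 1 of 14, again Timp4, passed upward and 0 downward (median -0.04), and the lowest was the complement C1 inhibitor Serping1 at -0.57. The control counts were 0 upward and 1 downward, Serping1 at -0.60, with the local background subtracted.

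Matrix proteases, the enzymes that TIMPs hold in check, were mostly near or below 0. On the knockout array 0 of 19 were at least 1.5-fold higher and 1 was lower (median -0.10), namely the gelatinase Mmp2 at -0.71, which was at -0.39 on the control array. On the control array 0 of 21 passed in either direction (median -0.06), and the lowest was Adam19 at -0.51. Mmp2 was at -0.47 (knockout) and -0.10 (control) with the local background subtracted.

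The rest of the TGF-beta pathway showed few differences of 1.5-fold. Of the genes for latency, activation and receptors, 0 of 16 were that much higher and 1 lower on the knockout array (median -0.11), and 0 of 18 passed on the control array (median -0.05). The one that passed was fibrillin-1 (Fbn1), whose microfibrils hold latent TGF-beta, at -0.82 on the knockout array and -0.42 on the control array. Local background subtraction gave Fbn1 -0.56 and -0.30, and 0 of the 16 then passed. Of signal transducers and their inhibitors, 0 of 15 passed on the knockout array (median -0.07) and 0 of 16 on the control array (median -0.05). The lowest were the TGF-beta-induced inhibitor Pmepa1, at -0.48 and -0.36, and the inhibitory Smad6, at -0.40 and -0.58, on the knockout and control arrays. Smad6 was at -0.59 and -0.44 with the local background subtracted, and then passed on the knockout array. Smad7, the inhibitory SMAD induced by TGF-beta, was at 0.084 and -0.15.

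Genes known to be induced by TGF-beta were lower in 5 of 15 and higher in 0 at 1.5-fold on the knockout array (median -0.08), and lower in 1 of 18 on the control array (median -0.11). The 5 were the fibrillar collagen genes Col1a1, Col1a2, Col3a1 and Col5a1 and the transcription factor gene Junb. Col3a1 was at -2.30 and Col1a2 at -0.76 on the knockout array, and they stood at -0.86 and -0.26 on the control array. Only 1 of the 15 passed on the knockout array with the local background subtracted, Col3a1 at -1.64, while Col1a2 was at -0.023. Fibrillar collagens taken as their own list were lower by that fold in 6 of 7 on the knockout array (median -0.69) and in 1 of 7 on the control array (median -0.21). After local background subtraction the counts were 2 of 7 and 1 of 7, and the medians -0.35 and -0.063. All 7 collagens were thus below 0 in the comparison that gave Ctgf its highest value, or 6 of 7 with the local background subtracted. The collagen list and the TGF-beta-induced list share those 4 collagen genes.

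Among YAP and TEAD target genes, a list that contains Ctgf, Cyr61 and Tgfb2, 2 of 15 were at least 1.5-fold higher and 0 lower on the knockout array (median 0.03), and 1 of 18 higher and 0 lower on the control array (median 0.06). The gene besides Ctgf was Ankrd1, a stress-responsive protein of heart muscle, at 1.27 on the knockout array and 1.23 on the control array. Ankrd1 alone passed on the knockout array, and Ctgf and Ankrd1 on the control array, when the local background was subtracted. Gadd45b, a stress-responsive regulator of growth arrest, was at 0.35 and 0.48. Of the other matricellular and secreted adhesion proteins, 0 of 19 were higher and 1 lower on the knockout array (median -0.04), which was the collagen-binding protein Sparc at -0.90 (-0.22 with the local background subtracted). On the control array 0 of 21 were higher and 1 lower (median 0.01), which was fibulin-1 (Fbln1) at -0.60 (-0.18 with the local background subtracted). Receptors for fibronectin and matricellular proteins passed in 0 of 15 on the knockout array and 0 of 16 on the control array, with the laminin receptor Itga6 lowest at -0.47 and -0.28. Of immediate early genes, the class to which Cyr61 also belongs, 2 of 18 were higher and 3 lower on the knockout array and 0 of 19 passed on the control array, with Egr1 at -1.49 and -0.088 and Jun at 0.70 and 0.20. Local background subtraction left 1 higher and 1 lower on the knockout array, where Egr1 was at -0.96 and Jun at 0.37, and gave 1 higher on the control array.

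**Figure D4:**
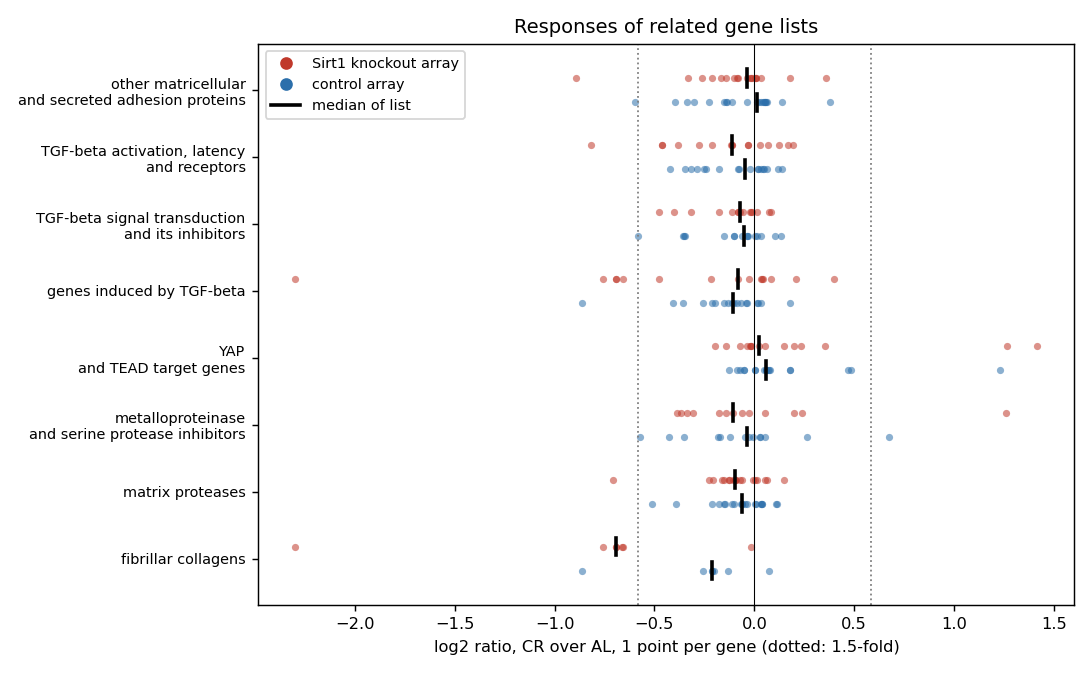
CR over AL log2 ratios (horizontal axis, 1 point per gene) of 8 gene lists related to TGF-beta and the matrix, on the knockout array (upper row of each pair) and the control array (lower row), with a bar at the median of each list and dotted lines at 1.5-fold. Fibrillar collagens have the lowest median on the knockout array (-0.69, or -0.35 with the local background subtracted), and single genes of the YAP and TEAD and protease inhibitor lists lie to the right.

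Markers of fibroblasts, the cells that make most matrix, were mostly below 0 on both arrays. Of the 13, all detected in every heart, 10 were below 0 on the knockout array (median -0.18) and 10 on the control array (median -0.22). By 1.5-fold 1 was lower on the knockout array, the microfibril gene Mfap5 at -0.71, and 0 on the control array. Gsn, which encodes the actin-severing protein gelsolin, was highest on the knockout array at 0.29. With the local background subtracted the medians were -0.091 and -0.15, and 8 and 10 were below 0. Their mean log2 signal was 8.43 (CR) and 8.64 (AL) in the knockout hearts, against 8.24 and 8.48 in the control hearts. Fewer fibroblasts and less RNA per fibroblast cannot be told apart in whole hearts, and the part of these markers in the values of Fn1 and Postn was not tested. Cardiomyocyte markers averaged 12.87 (CR) and 12.87 (AL) in the knockout hearts, against 12.71 and 12.46 in the control hearts. By 1.5-fold 0 of the 11 were higher with CR and 2 lower on the knockout array. On the control array 2 were higher and 2 lower, from Myl3 at -0.67 to Myh6 at 1.30. Local background subtraction gave 2 higher and 2 lower on the knockout array, and 4 higher and 2 lower on the control array. Markers of endothelium, which also expresses Ctgf and Timp3, were below 0 in 9 of 12 on the knockout array (median -0.14) and in 5 of 12 on the control array (median 0.059), with medians of -0.090 and -0.022 after local background subtraction. The part of the endothelial markers in the values of Ctgf and Timp3 was not tested. Smooth muscle and pericyte markers had medians of 0.0069 on the knockout array and 0.050 on the control array. Platelet markers, which bear on Thbs1 and Tgfb1, were detected in all hearts in 5 of 6, and the defining marker Itga2b was not above the blank spots in either CR heart. Of the 5 compared, 3 were above and 2 below 0 on the knockout array (median 0.023) and 1 above and 4 below on the control array (median -0.017). They ran on the knockout array from Pf4, platelet factor 4, at -0.65 (-0.24 with the local background subtracted) to the platelet receptor subunit Gp1bb at 0.16.

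Between genotypes, the direction for Ctgf and Timp3 was opposite under the 2 diets. Under CR both were higher in the knockout heart, with log2 differences of 0.46 for Ctgf and 0.25 for Timp3. Under AL both were lower in the knockout heart, at -0.49 and -0.51. By construction the gap between the 2 diets is the difference of responses given above, and not a separate result. Of the 8 detected genes, 0 differed by 1.5-fold under CR, where 1.45% of 11960 genes were that much higher in the knockout heart, 1.07% lower and 2.53% either. Under AL 0 of the 8 did, where 2.6% of 12786 genes were higher, 1.78% lower and 4.37% either. Values above 0 were found for 7 of the 8 under CR, against 50.9% of genes, and for 6 of the 8 under AL, against 52.5%. The median of the 8 was 0.21 under CR and 0.05 under AL, beside 0.0033 and 0.0084 over all genes compared. With the local background subtracted the medians turned to -0.12 and -0.064, and 3 of 8 were above 0 under CR and 4 of 8 under AL. Ctgf and Timp3 were then lower in the knockout heart under both diets: Ctgf was at -1.05 (CR) and -0.84 (AL), and Timp3 at -0.37 (CR) and -1.11 (AL).

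Cyr61 was higher in the knockout hearts by 0.28 under CR and 0.54 under AL, and Postn by 0.16 and 0.49. Both kept these signs in all 5 alternatives, which for Cyr61 ran from 0.21 to 0.44 under CR and from 0.31 to 0.75 under AL. For Fn1 the differences were 0.27 under CR and 0.094 under AL, but -0.48 and -0.67 with the local background subtracted. In the knockout CR heart the surroundings of the Fn1 spot read 161.1 scanner units and the spot itself 149.0. Tgfb1, Tgfb2 and Tgfb3 differed between genotypes by 0.0029, 0.013 and -0.020 under CR and by 0.00058, 0.091 and 0.0037 under AL. With the local background subtracted Tgfb2 was at -0.22 under CR and -0.18 under AL. These differences between arrays cannot be told apart from differences between the arrays themselves.

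**Figure D5:**
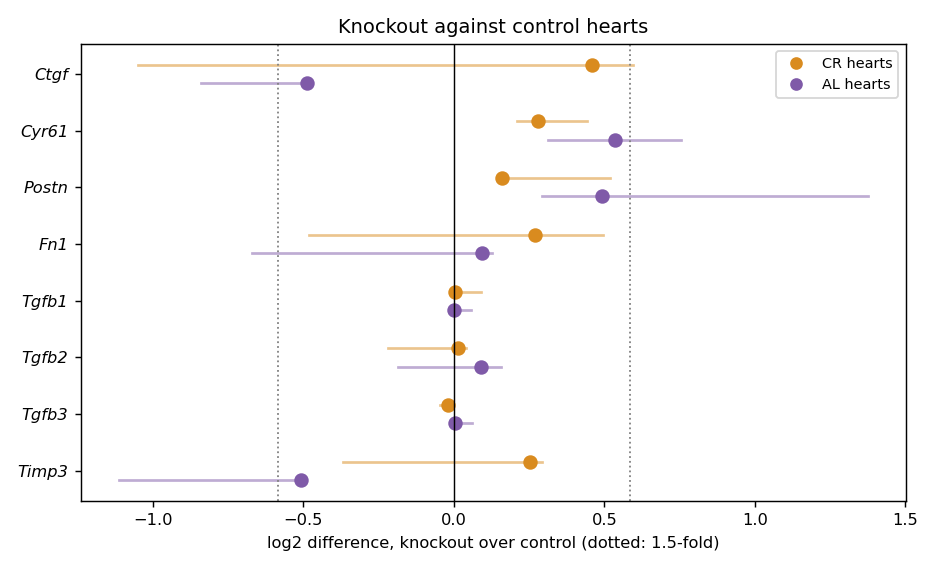
Log2 difference of the knockout over the control heart (horizontal axis) for the 8 detected genes under CR (upper point of each pair) and AL (lower point), with lines spanning 5 alternative settings and dotted lines at 1.5-fold. Ctgf and Timp3 lie right of 0 under CR and left of 0 under AL, and their CR lines cross 0.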

How the data were processed

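Per the file headers, the deposited scanner files give the median intensity of each spot, and of its surroundings, at the wavelengths of Cy5 and Cy3. The authors also deposited a table of normalized log2 ratios, which the labels describe as CR divided by AL. Direction and scale were settled by rebuilding the table as log2 of Cy3 over Cy5 after subtraction of the mean of the blank spots: 16554 of 16555 (knockout) and 17404 of 17405 (control) values lay within 0.001 of it after a constant per array (0.144 and 0.359). Its column medians were 8.08e-05 and -2.89e-06. Scanner software is not given in the sources used here.

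Spot intensities, without local background, were corrected by normexp (offset 50) and normalized by loess within arrays with limma 3.58.1 in R 4.3.3. For comparisons between arrays, channels were taken after Aquantile. The CR over AL ratios were checked on simulated arrays, with known ratios set only in bright spots. That check did not cover spots as dim as those of the TGF-beta genes, local background subtraction or comparisons between arrays. A spot was detected where it exceeded the trimmed mean of 2736 blank spots by 2 SD. The number of arrays limits the precision, and folds of dim genes are understated. Symbols were updated through the GRCm38.p6 gene table. Alternatives were local background subtraction, offset 0, median centring, loess within blocks, the authors' processing, averaging of probes and no detection filter.

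The 9 genes and all lists were chosen with earlier results of these data known. Genes of other lists are named where they are among the 2 highest or 2 lowest of their list by CR over AL on an array. Exceptions are Col1a1, named for passing 1.5-fold, the defining marker Itga2b, and genes marked above as picked after their values were seen. Similar genes are the 3 nearest to a gene spanning at least 1 log2 unit.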

Additional observations from a re-analysis of the deposited data

Results flagged for a closer look

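Of the 8 detected genes, 3 had CR over AL values of opposite sign on the 2 arrays. Postn was at -0.32 on the knockout array and 0.015 on the control array, a difference of -0.33. Cyr61 was at -0.20 and 0.059, a difference of -0.26. Tgfb2 was at -0.019 and 0.059, a difference of -0.078. The largest SD of log2 ratios among repeated positive control spots was 0.088. That SD is for 1 ratio on 1 array and not for a difference of 2 ratios. None of these differences was tested, since each rests on 1 heart per condition, and with the local background subtracted those of Postn and Cyr61 turned to 0.088 and 0.089.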

How the results depend on the processing

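Of 40 log2 values (8 detected genes in 5 comparisons), 21 kept their sign in all 5 alternatives that could alter them; averaging probes and dropping the detection filter left them as they were. The number of genes at least 1.5-fold apart was 2 for CR over AL in the knockout hearts, against 1 with the local background subtracted, 3 with an offset of 0 and 4 in the authors' deposited table. In the control hearts it was 0, against 1 with the local background subtracted (Ctgf), 1 with a normexp offset of 0 (Fn1) and 1 in the authors' deposited table (Fn1). For the difference of the responses it was 2, against 1 with the local background subtracted, where Ctgf reversed to -0.21, and 3 both with an offset of 0 and in the authors' deposited table, each adding 1 lower gene. Between genotypes under CR it was 0, against 1 with the local background subtracted and 1 with the blank means subtracted. Of all genes, 21.6% (local background), 10.9% (offset 0) and 17.6% (blank means) then passed under CR, against 2.53% in the main setting. Under AL it was 0, against 3 with the local background subtracted, 4 with an offset of 0 and 4 with the blank means subtracted. The shares of all genes under AL were 19.2%, 12.2% and 20.6% in these settings, against 4.37%. Local background subtraction, an offset of 0 and blank subtraction thus widen the values of all genes. On the knockout array 3.49%, 6.65% and 13.9% of genes then passed 1.5-fold, against 1.53%. On the control array 2.29%, 6.06% and 13.3% did, against 1.16%. For the difference of the responses the shares were 5.47%, 7.03% and 13.3%, against 0.914%. The causes were not tested. Counts of the other gene lists with the local background subtracted were added after seeing the data. No paired analysis was possible because each condition was measured in 1 heart. Leaving out a replicate was not possible for the same reason.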
